A study of Homo sapiens with 2 samples.

Results

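The DEAD-box and DEAH-box RNA helicases are a group of enzymes named for the amino acid motif with which they hold ATP. A list of 48 genes of the group was examined, of 63677 genes in the count table. It left out the interferon-induced helicases, and each gene was found by its current symbol. Of the 48, 47 were matched to a row and 46 were measured, meaning a mean over the libraries of at least 1 CPM, a read count scaled to a fixed library total. DDX52 was not matched. DDX47, a nucleolar helicase, had 10 control reads and 1 lncPSCA read and was under the minimum. Its exons overlap those of APOLD1 on the same strand by 1841 bases in GENCODE release 29, and whether the low count came from the counting of shared reads was not tested.

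The libraries were made from the human gastric carcinoma line HGC-27, harvested 48 hours after transfection. The control culture received the empty plasmid pcDNA3.1 and the other received pcDNA3.1 carrying lncPSCA, a long non-coding RNA. Both cultures were therefore exposed to plasmid and to the transfection reagent INTERFERin. There was 1 library per group, so no difference has a replicate check and no p-value is given. All intervals are 95% counting intervals, which do not cover the spread between cultures. In bulk RNA, fewer cells expressing a gene and less of its RNA per cell cannot be told apart.

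In all, 21552098 reads were counted for the control and 23016646 for lncPSCA. PSCA, the gene whose locus gives the transfected RNA its name, had 22 and 28699 reads. The 11 epithelial and gastric markers were low, at 13.1 and 17.1 CPM in sum. KRT18 had 4 and 0 reads, KRT19 had 1 and 0, EPCAM had 7 and 7, CDH1 had 26 and 20, and the gastric genes TFF1 and GKN1 had none. In the same list CLDN7, with 64 and 148 reads, and MUC1, with 105 and 165, were higher in the lncPSCA library. The mesenchymal marker VIM had 54877 and 60997 reads. Of 3 fibroblast genes, COL1A1 had 23459 and 24508 reads, DCN had 3407 and 3596, and COL1A2, with 259 and 394, was higher. The leukocyte genes PTPRC (9 and 4), CD68 (34 and 58) and CD3E (0 and 0) were low, and the endothelial genes PECAM1 and CDH5 had no reads. The part of these markers in the helicase values was not tested.

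RNA helicases use ATP to separate RNA strands or to strip proteins from RNA. DEAD-box enzymes open short duplexes locally, while DEAH-box enzymes move along RNA, often guided by proteins with a G-patch. Cells need them at every step of RNA life, from transcription and splicing through nuclear export and ribosome assembly to translation and decay. DDX5 and its close paralog DDX17 act in transcription, splicing and microRNA processing, and DDX5 is a coactivator of p53.

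A size rule described differences in place of a test. A gene was called past 2-fold when its ratio reached 2-fold and its counting interval lay wholly beyond 1.5-fold. A smaller rule called a gene when it was at least 25% higher or, by the same factor, at least 20% lower, and its interval left out 1. Ratios are of lncPSCA over control, so values under 1 are lower in the lncPSCA library. For the rule, log2 ratios were computed with a pseudocount of 1 read, and folds are plain ratios of CPM.

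None of the 46 measured helicases was past 2-fold in either direction, where 3.62% of all 15440 measured genes were. By the smaller rule, 10 helicases were lower, 0 were higher and 36 were neither. Over all measured genes, 16.8% were lower in this sense and 18.9% were higher, and the 10 helicases make up 21.7% of the 46. Helicase genes are abundant, and abundant genes were more often lower in the lncPSCA library. Among the 4513 genes with a mean of at least 50 CPM, 22.2% were lower and 9.71% were higher, beside 25.8% lower among the 31 helicases at that level. The share of lower helicases was thus near that of equally abundant genes.

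Most helicases lay slightly under an equal ratio. The log2 ratio was below 0 for 35 of 46, or 76.1%, beside 51.9% of all measured genes. Among those of at least 50 CPM it was below 0 for 28 of 31 helicases (90.3%) and for 67.2% of all genes. The family median was -0.18, and the median of all measured genes was -0.02. At a level of at least 50 CPM, the median was -0.23 for the 31 helicases and -0.13 for all genes. The counting interval lay wholly below 1 for 30 helicases, wholly above 1 for 5, and included 1 for 11. Together the 46 genes summed to 6699 CPM in control and 5746 CPM in lncPSCA.

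**Figure D1:**
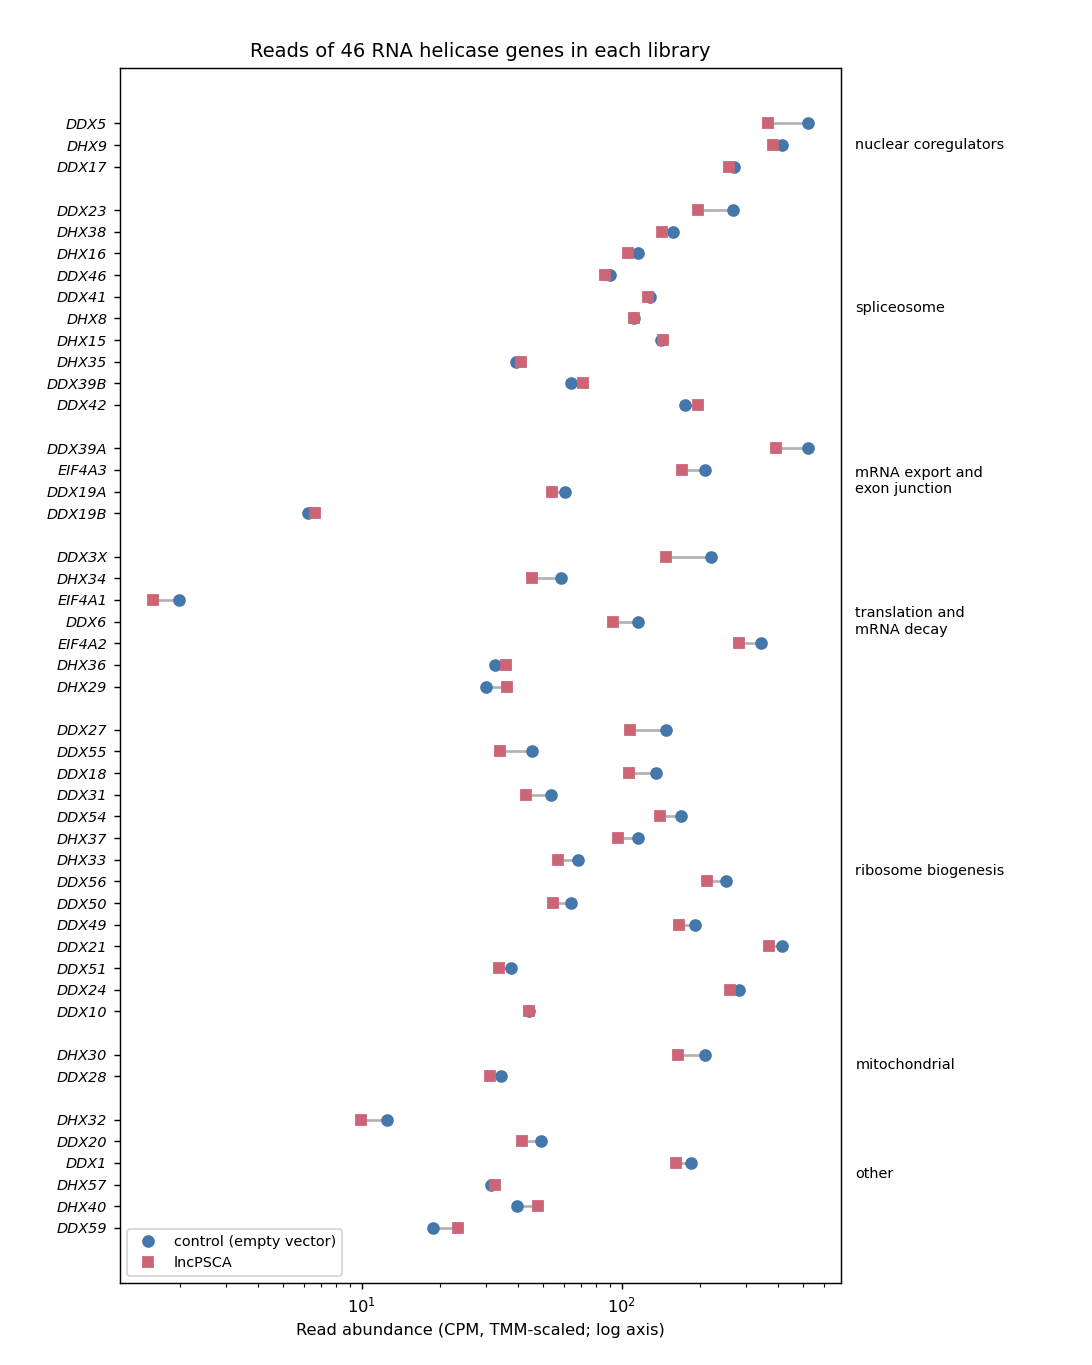
Read abundance of the 46 measured helicases in CPM (log axis) in the control library (circles) and the lncPSCA library (squares), by role. The squares lie left of the circles for 35 of 46 genes, and the gap is widest in CPM for DDX5, from 522 to 367.

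The calls rest on counting error alone and on the scaling of the libraries. If cultures are assumed to vary with a coefficient of variation of 0.1, 4 helicases were lower by the smaller rule (DDX3X, DDX5, DDX23 and DDX27), and at 0.2 the number was 0, in both cases with 0 higher. With libraries scaled by total counts, 6 were lower and 3 were higher (DDX59, DHX29 and DHX40), and with ratios centred along mean expression, 5 were lower and 1 was higher. Centred along transcript length and GC content, 10 were lower, of which 7 were among the 10 above. DDX39A, DDX55 and DHX32 were then not called, DDX6, DHX37 and EIF4A2 were lower, and DDX59 was higher. Over the scalings and centrings, between 30 and 37 of the 46 lay below 0. DDX3X, DDX5 and DDX27 were lower under each scaling and centring.

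DDX5 (ENSG00000108654) was counted with 11005 reads in the control culture and 8631 after lncPSCA transfection. This is 522 and 367 CPM, a fold of 0.704 (0.684 to 0.724), so DDX5 was lower by the smaller rule and not past 2-fold. DDX17 (ENSG00000100201) had 5700 and 6079 reads, or 270 and 259 CPM. Its fold was 0.957 (0.923 to 0.993), and it was called in neither direction. The difference in DDX5 was thus several times that in its paralog, while DDX17 was close to equal between the libraries.

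Against the 44 other measured helicases, DDX5 lay near the bottom and DDX17 in the upper part of the order. The median log2 ratio of those 44 was -0.18. DDX5 was at -0.51, which is 0.33 below that median (difference -0.33), with 1 other helicase lower and 43 higher. DDX17 was at -0.06, a difference of 0.11 from the same median, with 31 others lower and 13 higher. Among all measured genes of at least 50 CPM, 7.09% had a lower ratio than DDX5 and 59.1% a lower ratio than DDX17. DDX5 took 7.79% of the helicase reads in control and 6.39% in lncPSCA, and DDX17 took 4.03% and 4.50%. These places depend on the scaling. Centred along mean expression, the DDX17 log2 ratio turned positive (0.08), and DDX5, at -0.35, was the fifth lowest of the 46. Centred along transcript length and GC content, DDX17 was at -0.16, level with the median of the others, and ranked 24 of 46 from the lowest.

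The ratio of DDX5 to DDX17 reads within a library does not depend on library scaling. It was 1.93 in control and 1.42 in lncPSCA, a change of 0.735 (0.702 to 0.770). This change takes no account of transcript length or GC content. Centred along these, the log2 ratios of DDX5 and DDX17 were -0.46 and -0.16, closer together than by TMM (-0.51 and -0.06). Exons of CEP95, on the opposite strand, overlap those of DDX5 by 506 bases in GENCODE release 29. CEP95 had 600 and 751 reads, and the part of the overlap in the DDX5 counts was not tested. The libraries measure RNA and hold no value for the DDX5 protein.

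**Figure D2:**
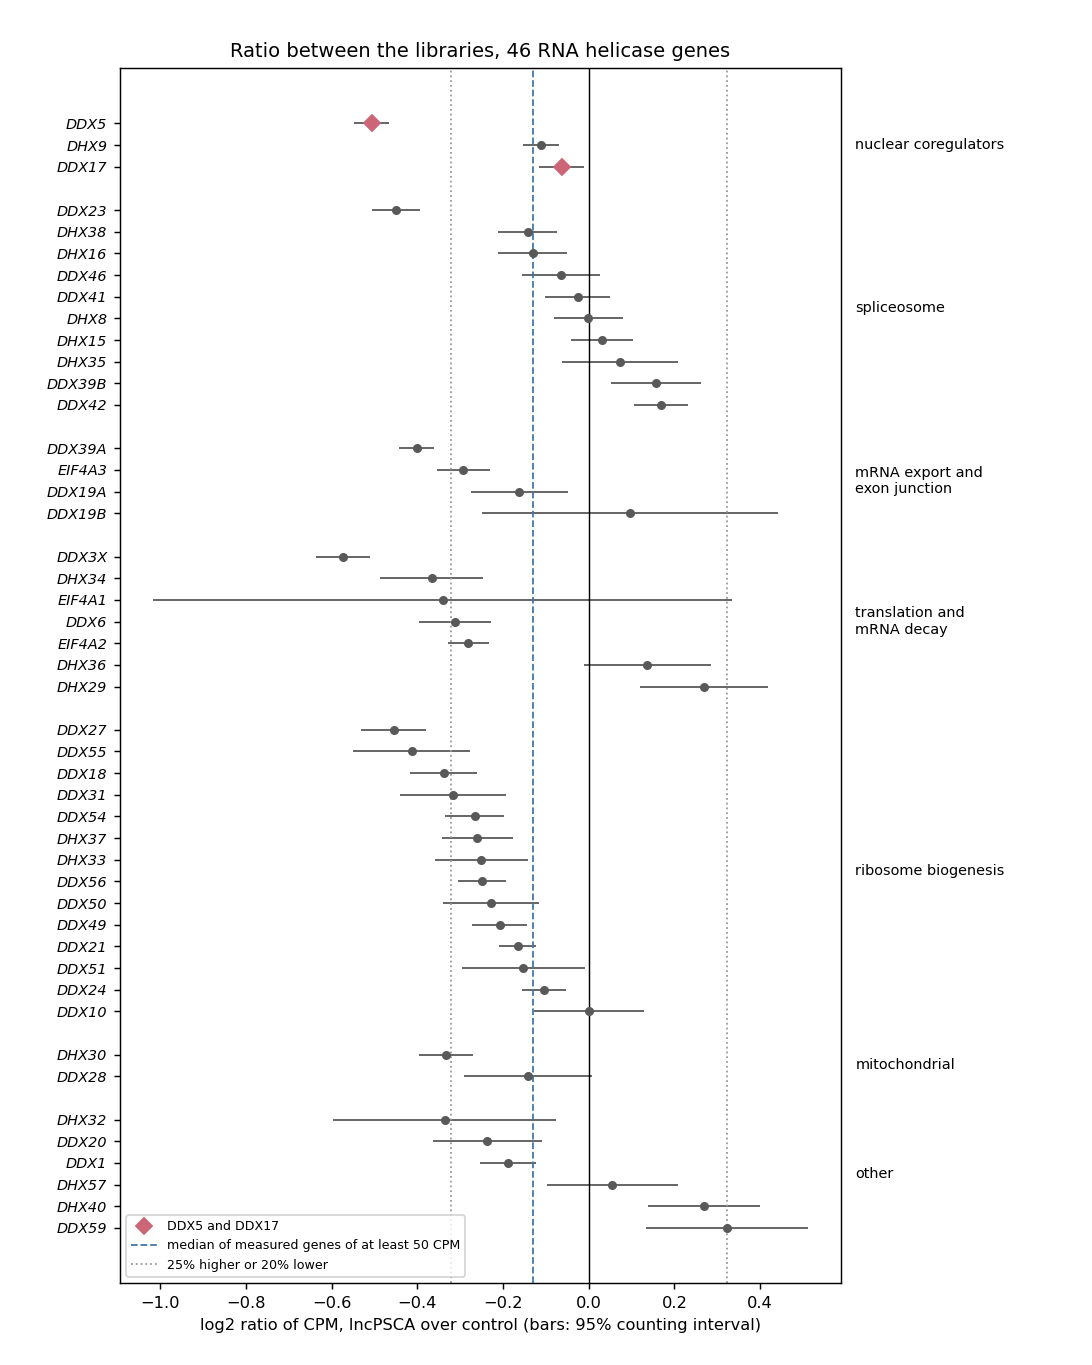
Log2 ratio of CPM, lncPSCA over control, of the 46 helicases by role, with 95% counting intervals. The dotted lines mark 25% higher and 20% lower, and the dashed line the median of genes of at least 50 CPM (-0.13). DDX5 (-0.51) and DDX3X (-0.57) lie farthest left, and DDX17 (-0.06) lies right of the dashed line.

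The interferon-induced helicases, which sense or restrict viral RNA, moved on another scale. All 5 were past 2-fold and higher in the lncPSCA library, where 3.02% of all measured genes were. RIGI, a sensor of RNA ends, had 95 and 4883 reads, a fold of 46.1 (37.7 to 57.1). DHX58, a regulator of the RIG-I-like receptors, had 30 and 1510 reads, DDX60 had 62 and 3581, and DDX60L had 98 and 2581. IFIH1, the MDA5 sensor of long double-stranded RNA, had 0 and 88 reads, at least 26.3-fold higher with the control set at 3 counts. With the counting error of both libraries the lower limit of its fold was 21.0. The highest log2 ratio among the 46 other helicases was 0.32, that of DDX59, and the lowest of the 5 was 4.55, that of DDX60L. The helicase list had left out the interferon-induced genes, and the lists were chosen with earlier results of these data known. The gap between the 5 and the 46 was thus partly built in and is no test.

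The promoters of both kinds of gene can be set side by side. The GRCh38.p14 promoter table of RefSeq, with 250 bases before and 50 after each transcription start, held 57 promoters of 44 of the 48 helicases and 4 promoters of antiviral helicases. Each was searched on both strands for GAAANNGAAA, the core of the interferon-stimulated response element to which interferon-activated factors bind, and overlapping matches were counted. At least 1 match was found in 3.57% of all 35116 promoters in the table, in 1 of the 57 helicase promoters (1.75% of them) and in 3 of the 4 antiviral ones (75%). The antiviral promoter without a match was that of RIGI, and DHX58 was not matched. A match is a run of letters and does not show binding, and none in this window says nothing of other regulatory sequence.

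Shown are the promoters of DDX5 and DDX17, on which the comparison centres, of DHX15, the 1 helicase with a match, and of the 3 antiviral helicases with matches. Each is 5′ to 3′ on the strand of the gene, with matches in capitals. DDX5 has 3 RefSeq starts, and the start shown is the one with the largest number of its GENCODE basic transcripts beginning within 50 bases (2 of 4). On GRCh38.p14, DDX5 is at chr17:64506240-64506539, DDX17 at chr22:38506262-38506561, DHX15 at chr4:24584505-24584804, DDX60 at chr4:168318703-168319002, DDX60L at chr4:168480443-168480742 and IFIH1 at chr2:162318635-162318934, all on the minus strand.
DDX5: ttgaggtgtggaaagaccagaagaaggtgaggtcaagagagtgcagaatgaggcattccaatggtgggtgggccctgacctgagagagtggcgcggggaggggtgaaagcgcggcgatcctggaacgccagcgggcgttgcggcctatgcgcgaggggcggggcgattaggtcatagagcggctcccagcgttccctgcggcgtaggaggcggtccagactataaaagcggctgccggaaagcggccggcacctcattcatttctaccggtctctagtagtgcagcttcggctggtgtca
DDX17: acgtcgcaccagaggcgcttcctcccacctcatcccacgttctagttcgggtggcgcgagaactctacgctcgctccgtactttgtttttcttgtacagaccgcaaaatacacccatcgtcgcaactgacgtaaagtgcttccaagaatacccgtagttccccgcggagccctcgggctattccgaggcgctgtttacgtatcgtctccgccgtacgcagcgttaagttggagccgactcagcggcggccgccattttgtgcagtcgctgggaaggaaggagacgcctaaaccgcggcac
DHX15: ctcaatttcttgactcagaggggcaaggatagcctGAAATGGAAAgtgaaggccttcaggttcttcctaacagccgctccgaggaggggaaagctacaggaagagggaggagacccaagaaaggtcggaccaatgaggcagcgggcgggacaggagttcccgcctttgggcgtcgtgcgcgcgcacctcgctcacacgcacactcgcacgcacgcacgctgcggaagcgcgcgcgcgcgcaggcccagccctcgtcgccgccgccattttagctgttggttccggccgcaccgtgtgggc
DDX60: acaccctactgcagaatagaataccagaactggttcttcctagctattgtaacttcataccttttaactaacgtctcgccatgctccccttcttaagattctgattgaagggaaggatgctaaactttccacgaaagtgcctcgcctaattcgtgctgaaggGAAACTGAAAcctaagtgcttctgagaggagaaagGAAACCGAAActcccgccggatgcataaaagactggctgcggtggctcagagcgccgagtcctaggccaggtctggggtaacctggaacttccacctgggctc
DDX60L: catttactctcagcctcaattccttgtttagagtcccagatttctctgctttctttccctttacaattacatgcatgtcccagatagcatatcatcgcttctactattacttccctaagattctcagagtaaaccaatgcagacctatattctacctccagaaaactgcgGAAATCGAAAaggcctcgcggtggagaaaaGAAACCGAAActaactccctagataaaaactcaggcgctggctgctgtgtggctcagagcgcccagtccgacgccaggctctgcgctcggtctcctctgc
IFIH1: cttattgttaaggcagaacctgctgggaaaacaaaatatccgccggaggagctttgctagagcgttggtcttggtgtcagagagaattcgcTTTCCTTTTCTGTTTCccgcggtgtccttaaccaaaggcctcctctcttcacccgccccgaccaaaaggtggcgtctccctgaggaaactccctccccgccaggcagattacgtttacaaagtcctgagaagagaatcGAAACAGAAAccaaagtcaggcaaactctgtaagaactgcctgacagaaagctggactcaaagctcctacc
DDX60 and DDX60L each hold 2 matches close before the start, and IFIH1 holds 3 on both strands, of which 2 overlap each other. The DHX15 match starts 215 bases before the transcription start (position -215), farther upstream than those of DDX60 (-88 and -53) and DDX60L (-80 and -50). The IFIH1 matches start at -159, -153 and -21. DHX15 itself had 2988 and 3402 reads, a fold of 1.02 (0.973 to 1.07).

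**Figure D3:**
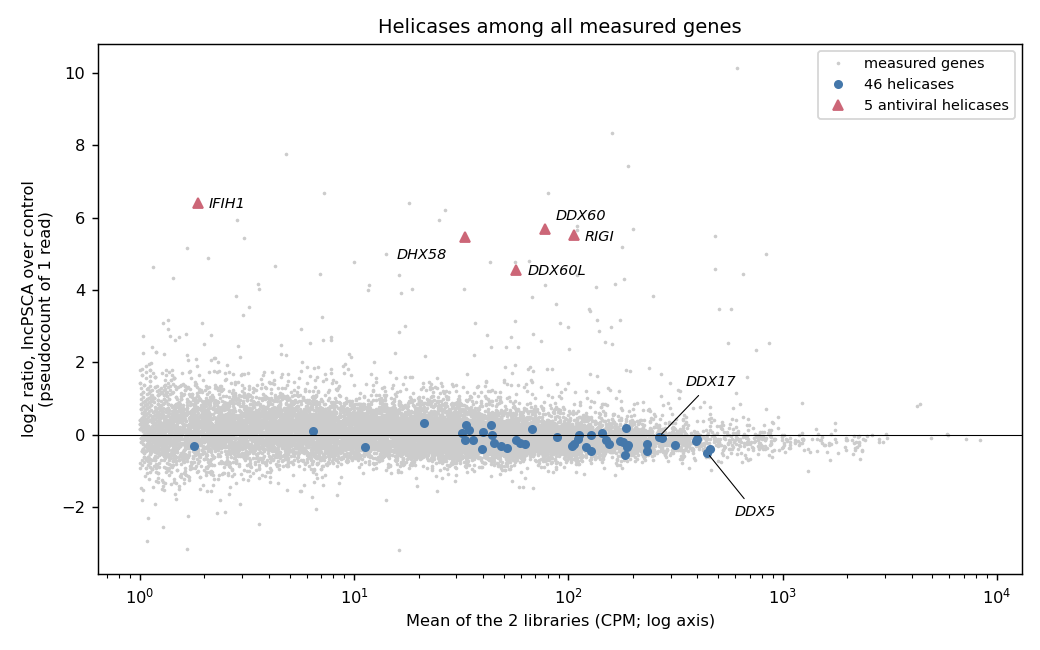
Log2 ratio of lncPSCA over control against mean CPM (log axis) for the 15440 measured genes (grey), the 46 helicases (circles) and the 5 antiviral helicases (triangles). The circles lie between -0.57 and 0.32 and the triangles between 4.55 and 6.40, where the position of IFIH1 depends on the pseudocount because it had 0 control reads.

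The third of the nuclear coregulators, DHX9, unwinds RNA and RNA-DNA structures and bridges transcription factors to RNA polymerase. It had 8713 and 8988 reads, or 413 and 382 CPM, a fold of 0.926 (0.899 to 0.954), and was called in neither direction.

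The spliceosome helicases remodel the splicing machinery at each step of its cycle. Their median log2 ratio was -0.01, with 6 of 10 below 0, and it was 0.11 when ratios were centred along mean expression. DDX23, which releases U1 from the 5′ splice site, was the only one called, with 5670 and 4628 reads and a fold of 0.733 (0.704 to 0.762). DHX38, which acts between the catalytic steps, was at 0.906-fold (0.863 to 0.951), and DHX16, which activates the spliceosome, was at 0.913-fold (0.863 to 0.966). DHX8, which releases the spliced mRNA, had 2360 and 2627 reads, a fold of 0.999 (0.945 to 1.06).

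At the upper end of the group, DDX42, an SF3B-associated helicase of the U2 particle, had 3701 and 4634 reads and a fold of 1.12 (1.08 to 1.17). DDX39B, which acts in early spliceosome assembly and in mRNA export, had 1347 and 1674 reads and a fold of 1.12 (1.04 to 1.20). The exons of DDX39B overlap the read-through gene ATP6V1G2-DDX39B, which was listed at 0 reads, by 2079 bases on the same strand, so its level is uncertain. DDX46, which acts when the branch site is bound, was at 0.956-fold, DDX41 at 0.982-fold and DHX35 at 1.05-fold, each with an interval that included 1.

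Among the helicases of mRNA export and the exon junction, 3 of 4 lay below 0 and the median log2 ratio was -0.23. DDX39A, which loads export factors onto mRNA, was lower, with 10971 and 9253 reads, or 520 and 394 CPM, a fold of 0.757 (0.736 to 0.778). EIF4A3, the clamp of the exon junction complex, had 4421 and 4022 reads, a fold of 0.816 (0.782 to 0.852), short of the limit of the smaller rule. DDX19A and DDX19B, which release mRNA at the nuclear pore, are near-identical in sequence, so the split of reads between them is uncertain. DDX19A had 1274 and 1269 reads (0.894-fold, 0.826 to 0.967) and DDX19B had 131 and 156 (1.07-fold, 0.842 to 1.36).

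The helicases of translation and mRNA decay had the lowest group median, -0.31, and the widest range. Without helicases that overlap another gene by at least 100 exonic bases, the export group (-0.35) held only DDX39A and EIF4A3. Of the mitochondrial pair only DHX30 (-0.33) was left. Both values were lower than -0.31 but rest on these few genes. DDX3X (ENSG00000215301), which helps ribosomes start on structured mRNAs, had 4653 and 3485 reads, or 221 and 148 CPM. Its fold of 0.672 (0.643 to 0.703) was the lowest of the 46 helicases. DHX34, a factor of nonsense-mediated decay, was also lower, with 1231 and 1064 reads and a fold of 0.776 (0.714 to 0.843). DDX6, which acts in the repression and decay of mRNA, was at 0.806-fold (0.760 to 0.854). EIF4A2, a subunit of the cap-binding complex eIF4F, was at 0.823-fold (0.796 to 0.851), with 7282 and 6678 reads. Neither DDX6 nor EIF4A2 was called, though both were lower when ratios were centred along transcript length and GC content.

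The other 2 members with enough reads lay above 0. DHX29, which binds the small ribosomal subunit and helps it scan structured mRNA leaders, had 634 and 851 reads, a fold of 1.20 (1.09 to 1.34). DHX36, which unwinds G-quadruplexes, had 688 and 843 reads, a fold of 1.10 (0.993 to 1.22). EIF4A1, the main helicase of eIF4F in most growing cells, was listed at only 42 and 37 reads. In GENCODE release 29 its exons overlap those of AC016876.2 on the same strand by 2186 bases. How reads shared by such genes were assigned is not given, and the part of the overlap in the low count was not tested, so the level of EIF4A1 is uncertain.

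Ribosome biogenesis helicases, which fold and free ribosomal RNA in the nucleolus, were the largest group and lay almost entirely below an equal ratio. Of 14 measured, 13 had a log2 ratio below 0, and the median was -0.25. Of all measured genes 51.9% were below 0, and of those of at least 50 CPM 67.2%. Centred along mean expression, the group median was -0.14 and the ratio of DDX24 changed sign. Of the 14, 3 were lower by the smaller rule and 11 were called in neither direction. DDX27 had 3127 and 2541 reads, a fold of 0.729 (0.692 to 0.769). Its exons overlap by 203 bases those of ZNFX1 on the opposite strand, which had 2148 and 4321 reads. DDX55 had 955 and 799 reads, a fold of 0.751 (0.683 to 0.826), and DDX18 had 2860 and 2520, a fold of 0.791 (0.749 to 0.835).

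The most abundant gene of the nucleolar group in CPM, DDX21, which links ribosomal RNA transcription and processing, had 8748 and 8689 reads and a fold of 0.891 (0.865 to 0.918). Its paralog DDX50 was at 0.854-fold (0.790 to 0.922). DDX31, which acts on the large subunit, was at 0.803-fold (0.737 to 0.875), just outside the limit. DDX54, DHX37, DHX33, DDX56, DDX49 and DDX51 had log2 ratios between -0.27 and -0.15. DDX24 had 5944 and 6163 reads, a fold of 0.931 (0.898 to 0.964). DDX10, which acts on the small subunit, was at 44.2 CPM in both libraries, with an interval of the fold from 0.915 to 1.09. The 13 genes below 0 thus spanned 0.729-fold to 0.931-fold.

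Both mitochondrial helicases work in assembly of the mitochondrial ribosome. DHX30 was lower, with 4397 and 3891 reads and a fold of 0.794 (0.760 to 0.829). DDX28 had 728 and 735 reads, a fold of 0.906 (0.817 to 1.01). DHX30 lay just inside the limit of the smaller rule, with a log2 ratio of -0.33.

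The remaining 6 helicases split evenly around an equal ratio. DHX32, a divergent member, was lower at few reads, 264 and 233, with a fold of 0.792 (0.661 to 0.948). DDX20, also called Gemin3, a subunit of the SMN complex that assembles splicing particles, had 1031 and 975 reads (0.849-fold, 0.777 to 0.927). DDX1, a subunit of the tRNA ligase complex, had 3900 and 3813 reads (0.877-fold, 0.839 to 0.918). DHX57 was at 1.04-fold (0.935 to 1.15), and DHX40 had 837 and 1123 reads, a fold of 1.20 (1.10 to 1.32). DDX59 had 397 and 553 reads and a fold of 1.2501 (1.10 to 1.43), the highest of the family. Its log2 ratio with the pseudocount was 0.32, just short of the limit.

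By family, the 31 genes with DDX or EIF4A symbols had a median log2 ratio of -0.23, with 26 below 0 and 7 lower by the smaller rule. The 15 DHX genes had a median of -0.11, with 9 below 0 and 3 lower. The difference between them was not tested, since genes are not replicates.

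Paralogs did not all keep their balance. The ratio of DDX39A to DDX39B reads went from 8.14 in control to 5.53 in lncPSCA, a change of 0.679 (0.628 to 0.733). It rests on the uncertain level of DDX39B, which overlaps ATP6V1G2-DDX39B. DDX39A was also not called when ratios were centred along transcript length and GC content. DDX5 to DDX17 changed by 0.735 as above. DHX29 to DHX57 went from 0.959 to 1.11, a change of 1.16 (1.002 to 1.34). The interval included 1 for DDX21 to DDX50 (1.04, 0.962 to 1.13) and for DDX19A to DDX19B (0.836, 0.655 to 1.07). The change of EIF4A1 to EIF4A2, 0.961 (0.617 to 1.496), rests on the uncertain count of EIF4A1. Of the 5 other pairs, 2 had an interval below 1 and 1 an interval above 1, by counting error alone.

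**Figure D4:**
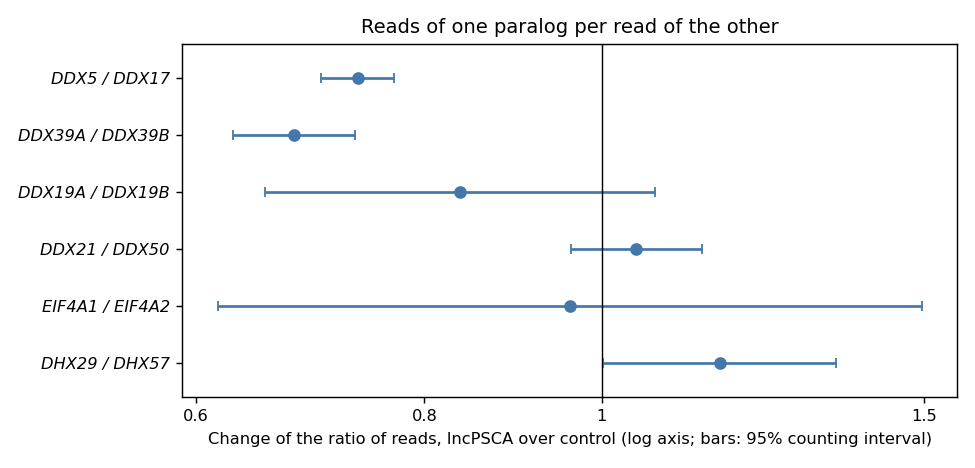
Change between the libraries of the reads of one paralog per read of the other, lncPSCA over control (log axis), with 95% counting intervals. DDX5 per DDX17 (0.735) and DDX39A per DDX39B (0.679) lie left of the line at 1, which marks an unchanged balance.

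Levels per length were set with the exonic length of each gene in GENCODE release 29, which may differ from the annotation used for counting. On this scale, in CPM per kilobase, DDX39A was the most abundant helicase in both libraries (135 and 102), followed by DDX21 (82.6 and 73.6) and DHX9 (73.2 and 67.7). DDX5 ranked 4 in control at 70.6 and 6 in lncPSCA at 49.7, behind DDX49 (69.0 and 59.8) and DDX56 (62.2 and 52.3) in the second case. DDX17, at 27.0 and 25.9, was well below DDX5. EIF4A2 ranked 7 in both, at 56.3 and 46.3. The order was otherwise similar: 35 of the 46 genes moved by at most 2 ranks, and the largest move was 6 ranks, by DDX39B.

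Across the 46 helicases, the Spearman correlation of the log2 ratio with the longest transcript was 0.12 and with mean CPM -0.32. Over measured genes these were 0.24 and -0.23. All points share the same 2 libraries. The 16 helicases with the shortest transcripts had a median log2 ratio of -0.20 and the 15 with the longest had -0.10, beside -0.08 and 0.10 for all measured genes in the same length ranges. The other 15 had -0.24 beside -0.01. These ranges were not matched on abundance, and the differences were not tested.

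Genes that work with the helicases were examined in 9 lists, apart from the antiviral helicases. Of their 68 measured genes, 2 were past 2-fold and higher, 1 was past 2-fold and lower, and 10 were higher and 19 lower by the smaller rule. Their shares over all measured genes were 3.02%, 0.596%, 18.9% and 16.8%. Among all genes of at least 50 CPM, 9.71% were higher and 22.2% lower by the smaller rule. The partner genes were not matched on abundance. At an assumed coefficient of variation of 0.2, 1 was past 2-fold and 0 lower, and 4 were higher and 1 lower by the smaller rule.

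The tRNA ligase complex, which joins the exons of spliced tRNAs and contains DDX1, was the 1 partner list of which all measured genes were called. All 5 matched partners of DDX1 were lower by the smaller rule, with a median log2 ratio of -0.43. RTCB, the ligase itself, had 3662 and 3208 reads, a fold of 0.786 (0.750 to 0.825), and FAM98A had 2276 and 1792, a fold of 0.707 (0.664 to 0.752). DDX1 at 0.877-fold lay above all of them.

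The SMN complex, in which DDX20 works, held the 1 gene past 2-fold and lower. GEMIN6 had 888 and 407 reads, a fold of 0.411 (0.365 to 0.463). GEMIN4 (0.694-fold) and STRAP (0.669-fold) were lower by the smaller rule, 4 others were not called, and the highest was GEMIN8 at 1.04-fold. In the eIF4A list, the cofactors EIF4B (0.729-fold) and EIF4H (0.765-fold) and the cap-binding protein EIF4E (0.761-fold) were lower. PDCD4, which inhibits eIF4A, had 904 and 1270 reads and was higher at 1.26-fold (1.16 to 1.37). The scaffold EIF4G1 was at 0.849-fold.

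Around EIF4A3 and DDX39A, 1 of 3 measured exon junction core genes was lower, MAGOH at 0.697-fold, and CASC3 was the highest at 0.859-fold. RBM8A, also of this list of 4, had 0 and 0 reads at its matched identifier. Whether its reads stood under another identifier was not tested, so its ratio is unknown. Of 12 genes of the TREX and export list, 3 were lower (THOC7 at 0.663-fold, ALYREF at 0.716-fold and NXF1 at 0.796-fold). THOC2, the scaffold of the THO complex, was higher, with 709 and 1440 reads, a fold of 1.82 (1.66 to 1.997). Of 9 measured decay partners of DDX6, 3 were higher, among them CNOT1 at 1.44-fold, and EIF4ENIF1 was lower at 0.777-fold. DCP1A, of the same list, had 0 and 0 reads and was not measured. DROSHA (1.16-fold) and DGCR8 (1.04-fold), which form the microprocessor with which DDX5 and DDX17 act, were called in neither direction.

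Of the 12 measured G-patch partners of DHX15 and related proteins, CMTR1 was past 2-fold and higher, with 1967 and 5164 reads and a fold of 2.36 (2.24 to 2.48). CMTR1 methylates the mRNA cap and is known as an interferon-stimulated gene. The lowest of the list was PINX1 at 0.751-fold, and 3 of its genes were lower by the smaller rule. Among 11 measured RNA helicases outside the DEAD-box and DEAH-box list, MOV10, an antiviral helicase of another family, was past 2-fold and higher, with 1018 and 3014 reads and a fold of 2.66 (2.47 to 2.86). The lowest was the mitochondrial SUPV3L1 at 0.838-fold. The median of this list was 0.29, beside -0.18 for the DEAD-box and DEAH-box genes.

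**Figure D5:**
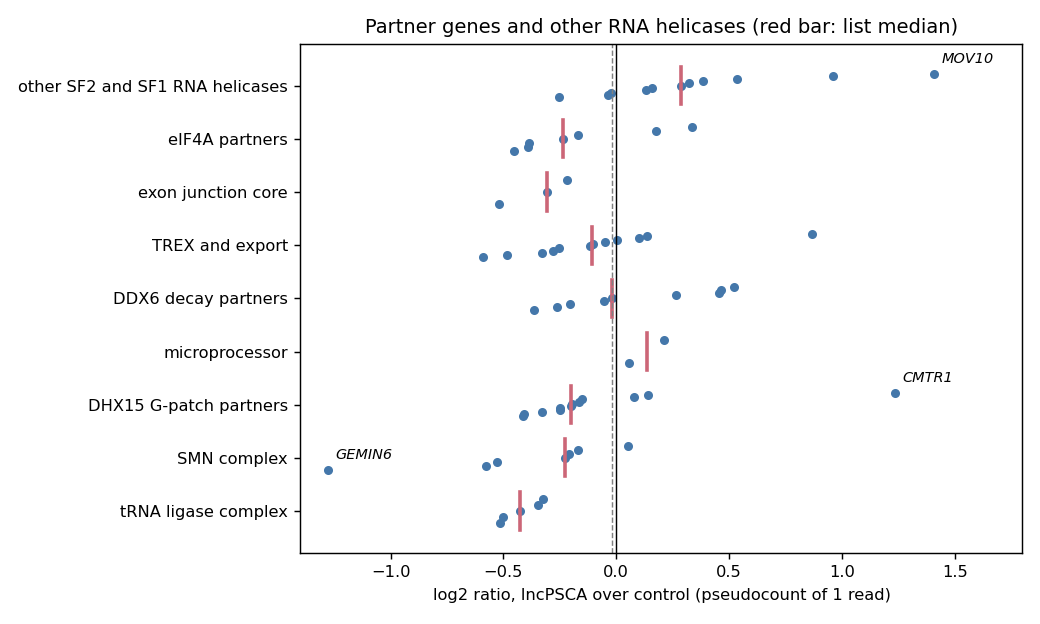
Log2 ratio, lncPSCA over control, of the 68 measured genes of 9 partner lists (points), with the median of each list (red bar) and of all measured genes (dashed line, -0.02). MOV10 and CMTR1 lie beyond 1 and GEMIN6 below -1, and all 5 genes of the tRNA ligase complex lie left of 0.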

How the data were processed

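RNA of 2 HGC-27 cultures, 1 per group, was sequenced. The authors deposited raw read counts per Ensembl gene, whole numbers with different totals in the 2 columns. The submitters' processing notes name TopHat2, HTSeq and hg19 with no versions. The annotation, the strand setting and the treatment of shared reads are not stated there or in the labels.

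Identifiers were matched to current symbols (81.9% of rows), and lengths and exon overlaps came from GENCODE release 29 (GRCh38), a build other than that of the counts. Libraries were scaled by TMM (edgeR 4.0.16). Counting intervals are exact (Clopper-Pearson, scipy 1.17.1), those of paralog ratios are normal on the log scale, and both cover counting error only, since the reads carry no molecular identifiers and may be copies of one molecule. With 1 library per group no test was possible. The size rules were tried on simulated counts that held counting error only. That trial had no spread between cultures, so it cannot show how the rules behave under such spread.

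Every helicase could be named, with the highest, lowest and most abundant of each role, and of each partner list those past 2-fold, the highest and the lowest. Other partner genes were chosen after their values were seen. The members and lists were chosen with earlier results of these data known. ASHWIN, of the tRNA ligase list, was not matched. Alternatives were DESeq2 1.42.0 size factors, total-count and upper-quartile scaling, other minimums and pseudocounts (0.5 and 5), centred ratios, assumed spreads, summed rows and other limits.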

Additional observations from a re-analysis of the deposited data

How the results depend on the processing

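No paired analysis was possible because each group has 1 library. DDX5 kept a log2 ratio below 0 under all alternatives in which it was kept. Scaling by total counts gave -0.45 for DDX5, -0.00198 for DDX17, -0.12 for the family median, -0.050 for the nuclear coregulators, and 6 helicases lower and 3 higher by the smaller rule; DESeq2 size factors gave 1 higher. Centring along mean expression gave -0.35 for DDX5 and 0.078 for DDX17, differences of -0.26 and 0.17 from the other helicases, 5 lower and 1 higher, a family median of -0.0904 and role medians of 0.038 (nuclear coregulators), 0.11 (spliceosome), -0.19 (translation and decay), -0.14 (ribosome biogenesis), -0.15 (mitochondrial) and 0.016 (other). Centring along transcript length and GC content gave -0.46 for DDX5, -0.16 for DDX17 and for the nuclear coregulators, a DDX17 difference of 4.79e-05, 1 helicase higher and 10 lower, of which 7 were also lower by TMM. Against other helicases of at least 50 CPM the DDX5 difference was -0.28. Without a CPM minimum 1 helicase, DDX47 with 10 and 1 reads, was past 2-fold and lower. At a limit of 1.5-fold, 0 helicases were lower, and 4 partner genes were higher and 2 lower. An assumed coefficient of variation of 0.1 left 4 helicases and 10 partner genes lower by the smaller rule. With 0.2 these were 0 and 1, with 4 partner genes higher, and past 2-fold 1 was higher and 0 lower. Leaving out the 16 helicases that overlap another gene by at least 100 exonic bases, DDX5 among them, left 6 lower by the smaller rule. Then 22 were below 0. The medians were -0.35 (export and exon junction, only DDX39A and EIF4A3 left), -0.33 (mitochondrial, only DHX30 left) and 0.055 (other). That alternative and the one without EIF4A1 were chosen after seeing the data. The cause of these shifts was not tested, except that fewer genes enter where members were left out. Of 731 log2 ratios of the other helicases over the alternatives, 688 stayed within their counting interval. Other minimums, assumed spreads, limits, comparison sets and left-out members cannot change the log2 ratio of a helicase. Much of that count was therefore fixed in advance and is no measure of stability. None of the called helicases changed sign. Of the others, 9 changed sign under at least 1 alternative (DDX10, DDX19B, DDX24, DDX41, DDX46, DHX8, DHX9, DHX36 and DHX57), 6 of them when centred along mean expression.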
